A study of Mus musculus with 6 samples.

Results

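The enzymes that let heart muscle burn ketone bodies and acetate were examined in the left ventricle of mice lacking a subunit of the mitochondrial pyruvate carrier. The set was given by name as 5 genes, Bdh1, Bdh2, Oxct1, Acat1 and Acss1, and consists of those that the authors' table lists. That held for 4 of the 5, out of 12072 listed genes, and Bdh2 is not analysed here. CS-Mpc2-/- mice, whose hearts carry the Mpc2 deletion, were compared with fl/fl mice, in which the Mpc2 alleles are flanked by recombination sites. All animals were 30 weeks old and ate normal chow. Each group had 6 mice, and RNA of 2 hearts was combined into each of 3 libraries, so that values are averages over pairs of hearts and the spread between single animals cannot be seen. The sources used here do not name the promoter behind the recombinase. Values are read coverage per 1000000 units of the library total, written ppm.

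Ketone bodies are made mainly by the liver and are burned by the heart as an alternative to fatty acids and glucose. Inside mitochondria, 3-hydroxybutyrate is oxidised to acetoacetate, acetoacetate receives coenzyme A from succinyl-CoA, and the product is split into acetyl-CoA for the citric acid cycle. Acetate enters the same pool when a mitochondrial synthetase joins it to coenzyme A. These routes supply acetyl-CoA without the pyruvate carrier.

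Some libraries stood apart or went against their labels. Mpc2, the targeted gene, had 14.9, 18.2 and 46.3 ppm in replicates 1, 2 and 3 of CS-Mpc2-/-, against 45.2, 38.9 and 27.7 ppm in fl/fl, so the library labelled CS-Mpc2-/- replicate 3 was not low. On the first principal component of all genes, which held 54.6% of the variance, fl/fl replicate 3 was at 14.8, next to the CS-Mpc2-/- libraries at 18.1 to 30.8 and far from the other fl/fl libraries at -47.8 and -42.3. The differences of the enzymes are therefore also given without these libraries. Both libraries were picked from the values themselves. Leaving out a fl/fl library that lies near CS-Mpc2-/- favours larger differences, so adjusted p-values of such fits are descriptive only. Depth, in 1000000 of the smallest coverage step of a library, was 278 to 319 in CS-Mpc2-/- and 92.9, 202 and 389 in fl/fl. The fl/fl libraries far from CS-Mpc2-/- on the first component were thus also the shallowest. Without fl/fl replicate 3, every fl/fl library is shallower than every CS-Mpc2-/- library, so genotype and depth cannot be told apart in those fits. Each of the 4 enzymes rested on at least 21347 such steps in every library. With all 6 libraries limma called 0 genes at a Benjamini-Hochberg adjusted p under 0.05 in either direction, and 1631 had an unadjusted p under 0.05. The tissue label was borne out by the high levels of the cardiomyocyte markers, all 8 of which were listed, led by Myh6 at 30974 to 66012 ppm.

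The genes lie apart in the genome. On mm10, Bdh1 (ENSMUSG00000046598.15) spans chromosome 16 from 31422280 to 31458901 on the plus strand, Oxct1 (ENSMUSG00000022186.14) chromosome 15 from 4026383 to 4155344 on the plus strand, Acat1 (ENSMUSG00000032047.5) chromosome 9 from 53580522 to 53610382 on the minus strand, and Acss1 (ENSMUSG00000027452.11) chromosome 2 from 150618105 to 150668500 on the minus strand. Their longest coding transcripts have 7, 17, 12 and 14 exons and 3122, 3527, 3405 and 3618 nt, in that order. Exons of an antisense gene overlap 533 nt of Bdh1 exons, 467 nt of Oxct1 exons and 113 nt of Acss1 exons, and 0 nt of Acat1 exons. Of these antisense partners the table lists BC037032, opposite Oxct1, at 3.67 to 8.45 ppm in CS-Mpc2-/- and 5.39 to 9.43 ppm in fl/fl.

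Promoter windows are shown so that the letters ahead of the RefSeq start of Acss1 can be set beside those of Oxct1 and of the alternative Bdh1 starts. RefSeq starts differ from the gene spans given above. By those spans the Acss1 window and the downstream Bdh1 window lie wholly inside their genes. The Oxct1 window and the upstream Bdh1 window run into theirs. The windows are the 250 bases ahead of each RefSeq start on GRCm38.p6, written 5′ to 3′ on the gene's strand, with CpG dinucleotides in capitals. The RefSeq table matched 4 of the 5 names, without Acat1.
Acss1 (chr2:150668241-150668490, minus strand): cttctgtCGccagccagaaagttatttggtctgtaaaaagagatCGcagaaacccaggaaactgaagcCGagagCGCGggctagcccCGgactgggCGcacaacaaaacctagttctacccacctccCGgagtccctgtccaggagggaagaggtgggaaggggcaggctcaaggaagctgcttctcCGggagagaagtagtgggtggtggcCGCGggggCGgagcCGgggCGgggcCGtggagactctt
Oxct1 (chr15:4026178-4026427, plus strand): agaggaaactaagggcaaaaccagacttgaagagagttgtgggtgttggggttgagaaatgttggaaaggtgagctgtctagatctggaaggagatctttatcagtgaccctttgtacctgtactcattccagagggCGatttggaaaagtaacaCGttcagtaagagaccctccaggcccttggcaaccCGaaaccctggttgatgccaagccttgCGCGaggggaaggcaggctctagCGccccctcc
Bdh1, upstream start (chr16:31422047-31422296, plus strand): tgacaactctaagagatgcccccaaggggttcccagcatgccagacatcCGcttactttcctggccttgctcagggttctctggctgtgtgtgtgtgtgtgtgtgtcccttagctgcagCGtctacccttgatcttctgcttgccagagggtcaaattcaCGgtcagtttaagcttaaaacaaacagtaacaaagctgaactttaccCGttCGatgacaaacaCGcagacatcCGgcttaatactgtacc
Bdh1, downstream start (chr16:31428503-31428752, plus strand): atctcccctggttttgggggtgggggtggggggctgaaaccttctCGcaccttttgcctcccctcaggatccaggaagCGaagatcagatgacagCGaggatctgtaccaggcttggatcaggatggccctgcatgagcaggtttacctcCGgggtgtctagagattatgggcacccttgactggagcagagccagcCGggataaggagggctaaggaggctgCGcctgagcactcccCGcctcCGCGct

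The Acss1 window holds 15 CpG dinucleotides and 61.6% G and C, the Oxct1 window 6 and 52.0%, and the Bdh1 windows 7 and 49.6% at the upstream start and 9 and 60.8% at the downstream start. The median of all 32851 windows of this length is 6 CpG dinucleotides and 52.4% G and C. Gene-level coverage does not separate the Bdh1 starts. None of these 4 windows contains AGGTCA, the core element of many nuclear receptors, on either strand, while 14.0% of all windows do. Each longer motif contains AGGTCA and so was also without a match there: TNAAGGTCA, bound by estrogen-related receptors, occurs in 1.14% of all windows, and the direct repeat of AGGTCA spaced by 1 base, bound by PPARs, in 0.0335%. This describes the letters of these short windows only.

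In every CS-Mpc2-/- library Acat1 and Acss1 were below the lowest fl/fl value, while Bdh1 and Oxct1 overlapped between the groups. The CS-Mpc2-/- mean was 71.7% of the fl/fl mean for Acat1 and 64.3% for Acss1, and 114% for Bdh1 and 95.9% for Oxct1. With all 6 libraries 0 of the 4 passed the test over all genes. Groups failed to overlap in the lower direction for 6.48% of all genes and in the higher direction for 8.01%. Without fl/fl replicate 3, Acat1 and Acss1 passed as lower, where 4.40% of all genes did, and 0 of the 4 passed as higher, where 6.51% did. That library was left out for lying near the CS-Mpc2-/- libraries, so the calls without it are descriptive only.

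**Figure D1:**
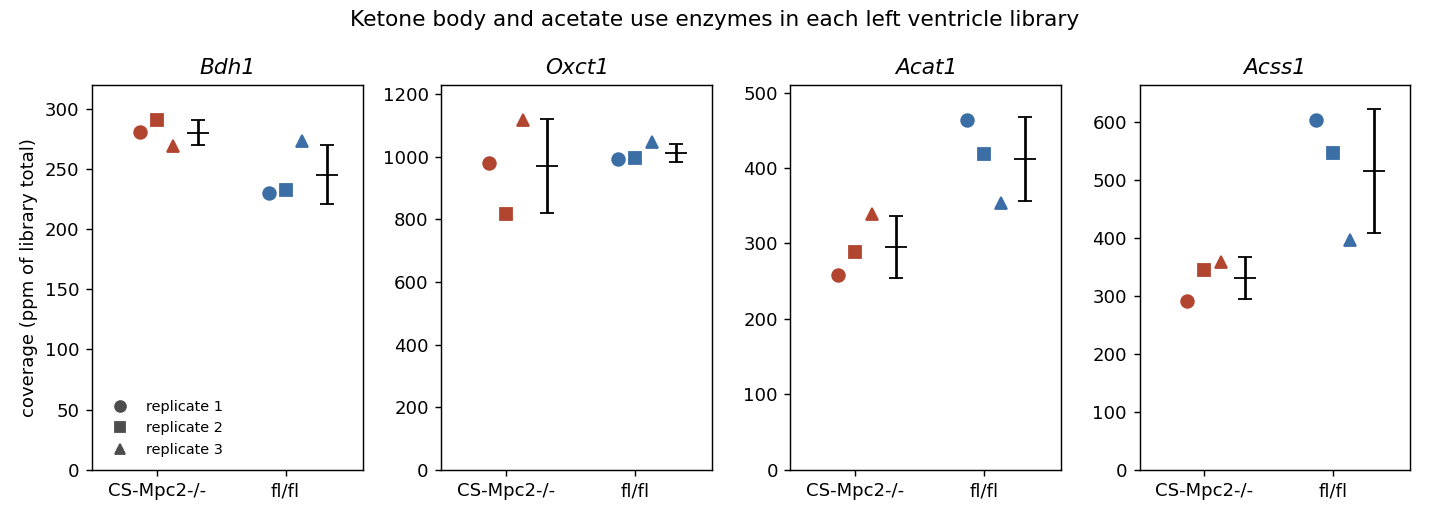
Coverage in ppm of the library total (vertical axes, from 0) for the 4 enzymes in CS-Mpc2-/- (red) and fl/fl (blue) libraries, with the replicate given by the symbol and the mean and SD of 3 libraries drawn in black. Acat1 and Acss1 lie lower in all CS-Mpc2-/- libraries, with fl/fl replicate 3 nearest to them, while Bdh1 and Oxct1 overlap.

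Bdh1, the mitochondrial dehydrogenase that turns 3-hydroxybutyrate into acetoacetate, had 281, 291 and 269 ppm in the CS-Mpc2-/- libraries, in the order of their numbers, against 230, 232 and 274 ppm in fl/fl. The groups overlapped only because fl/fl replicate 3 lay above CS-Mpc2-/- replicate 3, and the other fl/fl libraries were lower than all CS-Mpc2-/- libraries. The means were 280 ± 10.7 ppm in CS-Mpc2-/- and 245 ± 24.5 ppm in fl/fl (SD, n = 3 each). The log2 difference was 0.20 ± 0.16 (SE), with a 95% interval of -0.14 to 0.54 and a limma adjusted p of 0.599. An exact permutation test gave a two-sided p of 0.2, where 0.1 is the smallest that 3 against 3 can reach. Without fl/fl replicate 3 the difference was 0.28 ± 0.16 (limma adjusted p = 0.283), and without CS-Mpc2-/- replicate 3 it was 0.22 ± 0.16 (limma adjusted p = 0.607). Without replicate 3 of both groups it was 0.30 ± 0.14 (limma adjusted p = 0.196).

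Oxct1, the transferase that moves coenzyme A from succinyl-CoA to acetoacetate and so commits a tissue to ketone body use, was the most abundant of the enzymes. It was at 979, 816 and 1118 ppm in CS-Mpc2-/- and at 993, 997 and 1047 ppm in fl/fl. CS-Mpc2-/- replicate 2 was the lowest and CS-Mpc2-/- replicate 3 the highest of all 6 libraries, so the fl/fl values fell inside the CS-Mpc2-/- range. The means were 971 ± 151 ppm in CS-Mpc2-/- and 1012 ± 30.1 ppm in fl/fl (SD, n = 3 each), and the CS-Mpc2-/- libraries differed more among themselves than the means did. The log2 difference was -0.07 ± 0.18 (SE), with a 95% interval of -0.46 to 0.31 and a limma adjusted p of 0.886, so differences of either sign within that interval remain possible. An exact permutation test gave p = 0.7. The difference took the other sign, at 0.048, without CS-Mpc2-/- replicate 2, and it was -0.18 ± 0.17 without CS-Mpc2-/- replicate 3 (limma adjusted p = 0.712). Without fl/fl replicate 3 it was -0.05 ± 0.18 (limma adjusted p = 0.903), and without replicate 3 of both groups -0.15 ± 0.15 (limma adjusted p = 0.559).

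Acat1, the mitochondrial thiolase that splits acetoacetyl-CoA into acetyl-CoA and also serves isoleucine breakdown, was at 258, 289 and 338 ppm in CS-Mpc2-/- and at 464, 418 and 354 ppm in fl/fl. The groups did not overlap, and the narrowest gap lay between replicate 3 of CS-Mpc2-/- and replicate 3 of fl/fl. The means were 295 ± 40.5 ppm in CS-Mpc2-/- and 412 ± 55.2 ppm in fl/fl (SD, n = 3 each). The log2 difference of -0.48 ± 0.17 (SE), with a 95% interval of -0.86 to -0.10, missed the threshold when adjusted over the whole table (limma adjusted p = 0.289). Exact permutation of the 6 values gave p = 0.1, its lower limit. Without fl/fl replicate 3 the difference was -0.58 ± 0.17 (limma adjusted p = 0.0419), without CS-Mpc2-/- replicate 3 -0.58 ± 0.18 (limma adjusted p = 0.250), and without both -0.69 ± 0.15 (limma adjusted p = 0.00792). Over all alternatives the adjusted p was 0.00792 to 0.769.

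Acss1, the mitochondrial acetyl-CoA synthetase that activates acetate, showed the largest difference of the 4. It was at 290, 345 and 358 ppm in CS-Mpc2-/- and at 603, 546 and 395 ppm in fl/fl. Again no CS-Mpc2-/- library reached the lowest fl/fl library, which was replicate 3. The means were 331 ± 36.2 ppm in CS-Mpc2-/- and 515 ± 107 ppm in fl/fl (SD, n = 3 each). The log2 difference was -0.62 ± 0.19 (SE), with a 95% interval of -1.03 to -0.20, and 4.85% of all genes had a lower one. It missed the threshold as well (limma adjusted p = 0.240), and exact permutation again gave p = 0.1, its lower limit. Without fl/fl replicate 3 the difference was -0.80 ± 0.17 (limma adjusted p = 0.00832), without CS-Mpc2-/- replicate 3 -0.68 ± 0.21 (limma adjusted p = 0.254), and without both -0.86 ± 0.15 (limma adjusted p = 0.00215). With limma array weights Acss1 was the only enzyme of the 4 to pass (adjusted p = 0.0384), where 1.84% of all genes passed as lower and 2.66% as higher. These weights were estimated from the same values that were tested, so this call too is descriptive only. Over all alternatives the adjusted p was 0.00215 to 0.769.

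Summed markers of heart muscle, mitochondria and other cells also differed between the libraries, and their part in the differences of Acat1 and Acss1 was not tested. In bulk tissue fewer cells of a type and less RNA per cell cannot be told apart. The 6 mitochondrial citric acid cycle enzymes taken as a reference (Cs, Sdha, Idh3a, Ogdh, Mdh2 and Fh1) summed to 3229 to 3875 ppm in CS-Mpc2-/- and 4166 to 5419 ppm in fl/fl, and the CS-Mpc2-/- mean was 73.3% of the fl/fl mean. All 6 had a negative difference, with a median of -0.41. The 8 cardiomyocyte markers summed to 67735 to 76442 ppm in CS-Mpc2-/- and 68077 to 120694 ppm in fl/fl, and all 8 differences were negative (median -0.49). The CS-Mpc2-/- mean of their sum was 74.4% of the fl/fl mean, beside 71.7% for Acat1 and 64.3% for Acss1. Myh6 dominated this sum, with a fl/fl mean of 54133 of 98552 ppm, and its own CS-Mpc2-/- mean was 68.8% of the fl/fl mean. Single markers ranged from 64.6% for Ryr2 to 89.6% for Tnnt2, so the sum is no measure of cell content.

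The 8 fibroblast markers summed to 1642 to 4595 ppm in CS-Mpc2-/- and 855 to 1312 ppm in fl/fl, with 7 of 8 differences positive, and CS-Mpc2-/- replicate 1 was the highest library. Col3a1 dominated this sum, with a CS-Mpc2-/- mean of 1348 of 2635 ppm. Single markers ranged from 79.6% of the fl/fl mean for Dpt to 408% for Col1a1, so this sum is no measure of cell content either. The 4 listed macrophage markers of 6 fixed summed to 225 to 298 ppm in CS-Mpc2-/- and 140 to 223 ppm in fl/fl, with all 4 differences positive. Endothelial markers, 6 of 6 listed, summed to 1270 to 1330 ppm in CS-Mpc2-/- and 1100 to 1341 ppm in fl/fl, and the 5 smooth muscle and pericyte markers to 475 to 499 ppm in CS-Mpc2-/- and 494 to 535 ppm in fl/fl. Among these, 0 listed markers were at 0 in any library, which held for every listed gene. A value above 0 does not show that a gene was detected. The smallest coverage step was the value of 78 genes in fl/fl replicate 1, 50 in fl/fl replicate 2 and 2 to 4 in each other library. Of 3 hepatocyte markers the table lists Alb, which was at 49.8, 0.104 and 0.0792 ppm in CS-Mpc2-/- and at 0.0108, 5.36 and 0.738 ppm in fl/fl.

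**Figure D2:**
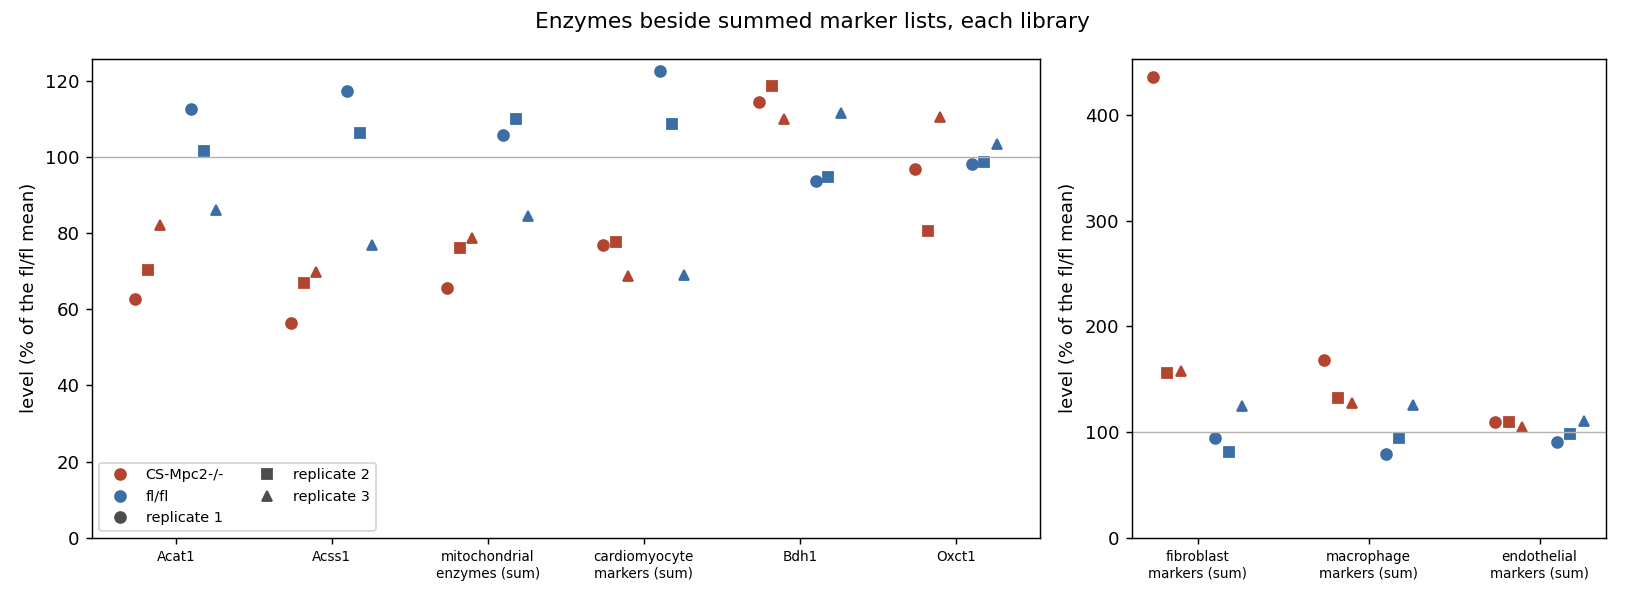
Level in each library as a percentage of the fl/fl mean (vertical axes, from 0) for the 4 enzymes and for summed marker lists, with CS-Mpc2-/- in red, fl/fl in blue and the replicate given by the symbol. Acat1 and Acss1 lie at 56.4 to 82.2% in CS-Mpc2-/-, as the summed mitochondrial enzymes do at 65.5 to 78.6%, and of the fl/fl libraries replicate 3 lies nearest to the CS-Mpc2-/- mean for Bdh1, Acat1, Acss1 and all 5 summed lists.

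Levels of different genes were compared per kilobase of transcript, and Oxct1 was the highest of the 4 in every library. It stood at 275 ± 42.9 ppm per kb in CS-Mpc2-/- and 287 ± 8.54 in fl/fl (SD, n = 3 each), above 98.1% of the genes with a known length. In CS-Mpc2-/- the other levels were 80.2 to 99.1 ppm per kb for Acss1, 86.3 to 93.2 for Bdh1 and 75.8 to 99.4 for Acat1, with means closer to each other than the spread. In fl/fl the order was Acss1 at 142 ± 29.7 ppm per kb, Acat1 at 121 ± 16.2 and Bdh1 at 78.6 ± 7.86, and this order held within each of the 3 fl/fl libraries. The fl/fl means of Acss1 and Acat1 were closer to each other than the SD of Acss1 between libraries.

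**Figure D3:**
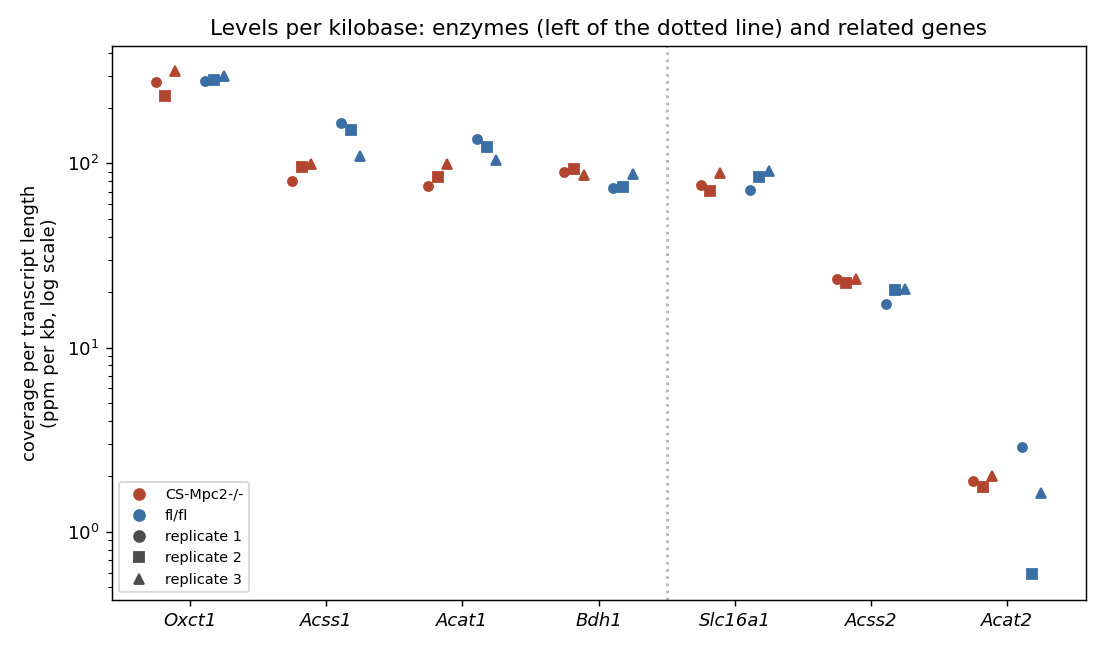
Coverage per kilobase of the longest coding transcript, in ppm per kb on a log axis, for the 4 enzymes (left of the dotted line) and 3 related genes, with CS-Mpc2-/- in red, fl/fl in blue and the replicate given by the symbol. Oxct1 lies above the other enzymes in all 6 libraries, and Acat2 lies at most at 2.88 ppm per kb.

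Ratios inside a library do not depend on how libraries were scaled. The pairs below were picked after the values were seen, so their ratios are given without a test. Acat1 over Bdh1, per kilobase, was 0.843, 0.911 and 1.15 in CS-Mpc2-/- and 1.85, 1.65 and 1.19 in fl/fl. Every CS-Mpc2-/- value of this transcript ratio lay below the lowest fl/fl value, though CS-Mpc2-/- replicate 3 and fl/fl replicate 3 were close. Acss1 over its cytosolic counterpart Acss2 was 3.41, 4.24 and 4.18 in CS-Mpc2-/- and 9.71, 7.34 and 5.27 in fl/fl. Acss2, which feeds acetyl groups to lipid synthesis and to histones, was itself at 68.9, 65.9 and 69.5 ppm in CS-Mpc2-/- and at 50.3, 60.3 and 60.8 ppm in fl/fl, a log2 difference of 0.25 ± 0.17 (SE; limma adjusted p = 0.526). Bdh1 over Oxct1 overlapped between groups, at 0.272 to 0.403 in CS-Mpc2-/- and 0.262 to 0.295 in fl/fl, and so did Acss1 over Acat1, at 0.997 to 1.12 in CS-Mpc2-/- and 1.05 to 1.23 in fl/fl. Acat1 over Oxct1 overlapped as well, at 0.273 to 0.367 in CS-Mpc2-/- and 0.350 to 0.484 in fl/fl.

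The profiles of Acat1 and Acss1 across the 6 libraries were the most alike among the 4 enzymes. The root mean square difference of their centred log2 values was 0.11, against 0.50 between Bdh1 and Acss1, the least alike pair. Among 8391 other genes averaging 10 ppm or more, the 3 genes nearest to Acss1 were Slc25a20, the mitochondrial carnitine and acylcarnitine carrier, Med12l and the tubulin gene Tuba4a, at 0.067 to 0.074. Those nearest to Acat1 were the splicing factor gene Cdc40, the mitochondrial ribosomal protein gene Mrps12 and Cmya5, at 0.050 to 0.065. Those nearest to Oxct1 were the cohesin gene Smc1a, the complex III subunit gene Uqcrc2 and the transcription factor gene Bhlhe41, at 0.042 to 0.046. Those nearest to Bdh1 included Pitpnb and Vcp, at 0.031 and 0.038.

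Other genes of ketone body and acetate metabolism were examined by role. Of 40 such genes 30 were listed, and with all 6 libraries 0 of these passed as higher and 0 as lower. Their median log2 difference was 0.00, against 0.04 over all genes tested. At an unadjusted p under 0.05, 3 were higher and 8 lower, where 8.08% and 5.43% of all genes were. Without overlap between groups, 2 were higher (Bsg and Acss2) and 3 lower (Slc25a20, Ppara and Ppargc1a), where 8.01% and 6.48% of all genes were. Without fl/fl replicate 3, 2 were higher (Slc16a6 and Acot13) and 9 lower at an adjusted p under 0.05, where 6.51% and 4.40% of all genes were. Without replicate 3 of both groups the counts were 3 and 8, with 7.24% and 5.30% of all genes called.

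**Figure D4:**
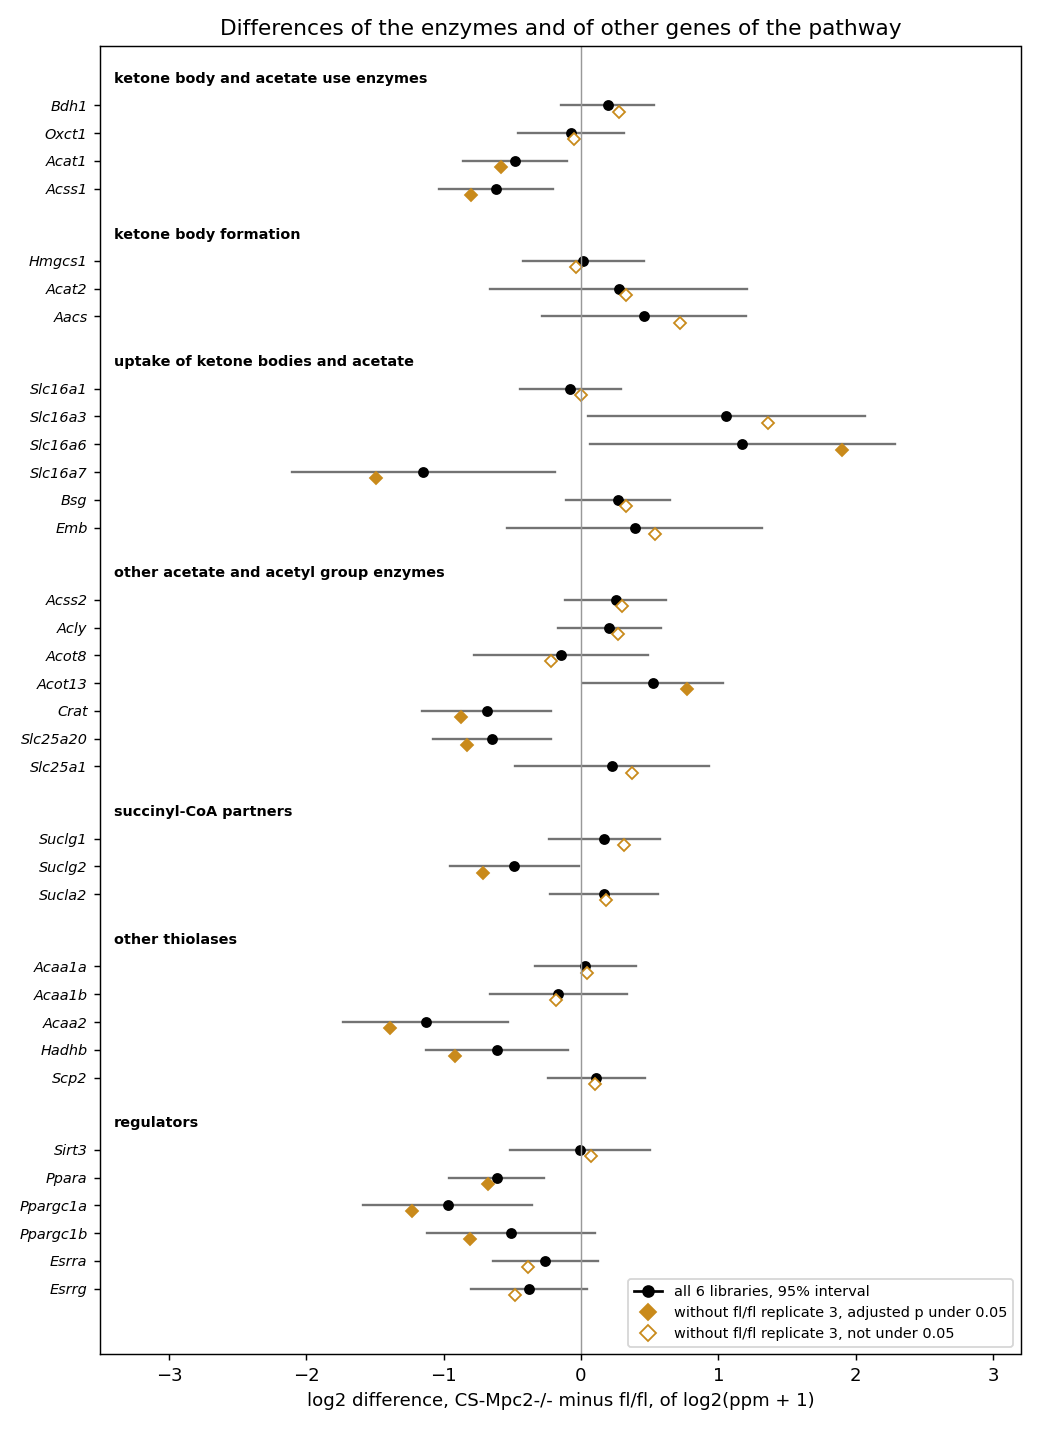
Log2 difference, CS-Mpc2-/- minus fl/fl, of log2(ppm + 1) (horizontal axis) for the 4 enzymes and 30 other genes grouped by role. Black points and lines give all 6 libraries with the 95% interval, and diamonds the fit without fl/fl replicate 3, filled where the adjusted p was under 0.05. Filled diamonds lie left of 0 for Acat1, Acss1 and 9 other genes, and right of 0 for Slc16a6 and Acot13.

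None of the 3 genes examined from ketone body formation and its cytosolic counterparts passed, also without fl/fl replicate 3, and their median log2 difference was 0.27. Aacs, a cytosolic synthetase that activates acetoacetate for lipid synthesis, was at 12.1, 10.5 and 8.21 ppm in CS-Mpc2-/- and at 8.27, 3.90 and 10.7 ppm in fl/fl, with a difference of 0.46 ± 0.34 (SE; limma adjusted p = 0.574). The groups overlapped, and fl/fl replicate 2 was the lowest library. Hmgcs1, the cytosolic synthase of cholesterol synthesis, was at 21.5, 20.3 and 21.5 ppm in CS-Mpc2-/- and at 22.9, 20.5 and 19.2 ppm in fl/fl, with a difference of 0.02 ± 0.20 (SE; limma adjusted p = 0.977). Acat2, the cytosolic thiolase, is described with the thiolases.

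Transporters of ketone bodies and acetate were dominated by Slc16a1, the main monocarboxylate transporter of the heart. It was at 336, 312 and 392 ppm in CS-Mpc2-/- and at 319, 374 and 405 ppm in fl/fl, and the groups overlapped, with a log2 difference of -0.08 ± 0.17 (SE; limma adjusted p = 0.869). Bsg, the chaperone that carries this transporter to the membrane, was at 1577, 1461 and 1320 ppm in CS-Mpc2-/- and at 1133, 1175 and 1301 ppm in fl/fl (log2 difference 0.27 ± 0.17; limma adjusted p = 0.511). The smallest unadjusted p-values belonged to 3 minor transporter genes. Slc16a7 was at 1.89, 1.66 and 5.68 ppm in CS-Mpc2-/- and at 10.8, 8.32 and 4.09 ppm in fl/fl, and Slc16a6 was at 17.4, 20.4 and 14.2 ppm in CS-Mpc2-/- and at 5.92, 2.43 and 20.97 ppm in fl/fl. Replicate 3 of fl/fl lay inside the CS-Mpc2-/- range for Slc16a7 and just above it for Slc16a6. Slc16a3, the lactate exporter of glycolytic cells, was at 15.2, 8.98 and 5.32 ppm in CS-Mpc2-/- and at 1.38, 5.45 and 6.36 ppm in fl/fl (limma adjusted p = 0.355). Of the 6 listed genes of 8 fixed, 0 passed with all 6 libraries, and Slc16a6 was higher and Slc16a7 lower without fl/fl replicate 3 (limma adjusted p = 0.00354 and 0.0430), where 6.51% of all genes were higher and 4.40% lower.

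Among other genes of acetyl group handling, the smallest unadjusted p-values belonged to Slc25a20, Crat and Acot13. Crat, which exchanges acetyl groups between coenzyme A and carnitine in mitochondria, was at 262, 237 and 369 ppm in CS-Mpc2-/- and at 490, 555 and 353 ppm in fl/fl, and fl/fl replicate 3 lay below CS-Mpc2-/- replicate 3. Slc25a20 was at 46.4, 47.5 and 54.5 ppm in CS-Mpc2-/- and at 91.1, 86.1 and 60.0 ppm in fl/fl, with no overlap, where 6.48% of all genes did not overlap in the lower direction. Their log2 differences were -0.69 ± 0.22 and -0.65 ± 0.20 (SE; limma adjusted p = 0.253 and 0.240), and both passed as lower without fl/fl replicate 3 (limma adjusted p = 0.0121 for each), where 4.40% of all genes did. Acot13, a thioesterase of long-chain acyl-CoA, had a difference of 0.52 ± 0.23 (SE; limma adjusted p = 0.360). Of the 7 listed genes of 9 fixed, 0 passed with all 6 libraries.

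The enzymes that hold succinyl-CoA, the coenzyme A donor of Oxct1, had differences of both signs, and 0 of 3 passed with all 6 libraries. Suclg2, the subunit of the GTP-forming succinyl-CoA ligase, was at 78.4 to 98.1 ppm in CS-Mpc2-/- and at 91.8 to 166 ppm in fl/fl, with a log2 difference of -0.49 ± 0.22 (SE; limma adjusted p = 0.360). Sucla2, the subunit of the ATP-forming ligase, was at 275, 230 and 351 ppm in CS-Mpc2-/- and at 234, 261 and 258 ppm in fl/fl, with 0.17 ± 0.18, and the shared subunit gene Suclg1 also had 0.17, ± 0.18 (SE; limma adjusted p = 0.711 for each). Suclg2 passed as lower without fl/fl replicate 3 (limma adjusted p = 0.0245), where 4.40% of all genes did, and the other 2 did not.

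Among other thiolases the smallest unadjusted p-values belonged to enzymes of mitochondrial fatty acid oxidation. Acaa2, the thiolase for medium-chain substrates, was at 206, 194 and 384 ppm in CS-Mpc2-/- and at 656, 647 and 382 ppm in fl/fl, and Hadhb, the thiolase subunit of the trifunctional protein, at 134, 153 and 159 ppm in CS-Mpc2-/- and at 307, 257 and 148 ppm in fl/fl. In both genes fl/fl replicate 3 lay within the range of the CS-Mpc2-/- values. The peroxisomal thiolase genes Acaa1a and Acaa1b had differences of 0.03 ± 0.17 and -0.16 ± 0.23 (SE; limma adjusted p = 0.949 and 0.781). Acat2 was near the lower end of the table at 3.96 to 4.50 ppm in CS-Mpc2-/- and 1.32 to 6.47 ppm in fl/fl. Of the 5 listed thiolases 0 passed with all 6 libraries, and Acaa2 and Hadhb passed as lower without fl/fl replicate 3 (limma adjusted p = 0.00279 and 0.00395), where 4.40% of all genes did.

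No regulator had a positive difference, and the smallest unadjusted p-values were those of Ppara, Ppargc1a and Esrrg. Ppara, a fatty acid receptor that controls fuel genes of the heart, was at 160, 155 and 184 ppm in CS-Mpc2-/- and at 256, 276 and 235 ppm in fl/fl, and Ppargc1a, a coactivator of mitochondrial genes, at 55.0, 98.6 and 117 ppm in CS-Mpc2-/- and at 199, 207 and 118 ppm in fl/fl. Neither overlapped between groups, where 6.48% of all genes did not overlap in the lower direction, and for Ppargc1a the replicate 3 libraries of the groups were almost equal. Esrrg, an estrogen-related receptor, had a difference of -0.38 ± 0.19 (SE; limma adjusted p = 0.420), and Sirt3, a mitochondrial deacetylase known to act on the synthetase encoded by Acss1, had -0.01 ± 0.23 (SE; limma adjusted p = 0.991). All 6 listed regulators of 7 fixed had a negative difference (median -0.44), 0 passed with all 6 libraries, and Ppara, Ppargc1a and Ppargc1b passed as lower without fl/fl replicate 3, where 4.40% of all genes did.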

How the data were processed

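RNA of 3 CS-Mpc2-/- and 3 fl/fl ventricle pools was depleted of ribosomal RNA and sequenced on an Ion Torrent Proton, per the labels' protocols. Reads were placed on mm10, per the submitters' processing notes. The sources used here name no aligner, counting step, strand setting or annotation, so a gene and its antisense partner cannot be told apart. The authors deposited a coverage signal per gene which, as read from the values, they had scaled to nearly equal totals. It steps like aligned bases, so reads were not recovered and no counting intervals are given. The authors' deposited ratio of group means and deposited p-value per gene were not used.

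Values were divided by the library total (ppm). Groups were compared on log2(ppm + 1), which understates fold changes of low genes, with limma 3.58.1 in R 4.3.3 (intensity trend, group as the only term, two-sided). Benjamini-Hochberg adjustment covered all 12072 genes, with a threshold of 0.05. A minimum mean of 1 ppm removed 0 genes. Enzyme means were also compared by exact permutation (scipy 1.17.1). The limma step was tested on simulated data. The design foresaw counts or per-million values, and the signal was given the test for the latter. Transcript lengths came from GENCODE M21 (94.4% of genes, by symbol).

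The enzymes, lists and tests were chosen with earlier results of these data known. Some genes of these lists, and 1 of the genes nearest in profile, are not reported here and stay out of list counts and sums. Named genes were the enzymes, the 3 nearest in profile to each (predicted genes skipped) and up to 3 per list with the smallest unadjusted p. Slc16a1, Bsg, Acss2, Sirt3, Acaa1a, Ppargc1b and the ratio pairs were added after their values were seen.

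Alternatives were upper quartile and median-of-ratios scaling, no trend, robust estimation, no filter or a minimum of 5 ppm, pseudocounts of 0.1 and 5 ppm, array weights, the replicate number as a block, subtraction of a transcript length trend per library, each library left out, and replicate 3 of both groups left out.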

Additional observations from a re-analysis of the deposited data

How the results depend on the processing

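The directions of Bdh1, Acat1 and Acss1 held under all 18 alternatives, and that of Oxct1 under 17, its difference being 0.048 without CS-Mpc2-/- replicate 2 (-0.18 to 0.048 with 1 library left out). Some of the 18 could not change a difference and so do not test its direction. These were no trend, robust estimation, no filter, the minimum of 5 ppm and the replicate block. Calls over all genes depended on fl/fl replicate 3. Genes called numbered 0 with all 6 libraries, 0 to 1317 with 1 library left out (1317 without fl/fl replicate 3 and 0 in the other 5), 543 with array weights and 1514 without replicate 3 of both groups. The matching counts were 0 to 2, 1 and 2 among the 4 enzymes, and 0 to 11, 5 and 11 among the other pathway genes. Acat1 had a difference of -0.58 to -0.39 with 1 library left out and -0.69 without replicate 3 of both groups. Acss1 had -0.80 to -0.49 with 1 library left out, -0.71 with array weights (limma adjusted p = 0.0384) and -0.86 without replicate 3 of both groups. The cause was not tested. Same-numbered libraries did not deviate together (correlations of their deviations from the group means 0.07, -0.04 and -0.07 for numbers 1, 2 and 3), and with the replicate block 0 genes were called and Acss1 had -0.62 (limma adjusted p = 0.281). For Mpc2 the difference was -0.63 with all 6 libraries (limma adjusted p = 0.453), and the groups overlapped. Without replicate 3 of both groups it was -1.30 (limma adjusted p = 0.00279). That fit leaves out CS-Mpc2-/- replicate 3, which was singled out by its Mpc2 level, so it is no independent test of Mpc2. Of the 12 genes nearest in profile, 12 stayed nearest under median-of-ratios scaling. Such scaling shifts all genes of a library almost alike and so nearly cancels between 2 profiles. That outcome was therefore nearly fixed in advance and is no check of the likeness. Coverage was shallowest in fl/fl replicates 1 and 2, which limits the low genes more than the enzymes. In fits without fl/fl replicate 3 only these fl/fl libraries remain, so genotype and depth cannot be told apart there.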
